A study of Mus musculus with 6 samples.

Results

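The H3K27ac ChIP-seq peaks at 9 genes that mark retinal bipolar cells were examined: Vsx1, Grm6, Trpm1, Isl1, Cabp5, Prkca, Pcp2, Bhlhe23 and Lhx4. These are 9 of 21938 protein-coding genes of the GENCODE vM21 basic annotation (GRCm38), and they were listed by name. A peak was assigned to a gene if it lay at its promoter, taken as 2.5 kb on either side of any transcription start site (TSS), or in its window, the gene body with 50 kb on either side. H3K27ac, acetylation of histone H3 at lysine 27, is a mark of active promoters and enhancers. The data were 6 peak lists, each called on the whole retina of 1 eye of a wild-type mouse. In the 3 4xIOP samples the intraocular pressure had been raised to 30 mmHg for 1 h, 4 times, starting at 3 months of age, and the retina was taken on day 2 after the last elevation. The 3 controls were untreated fellow eyes, so that the control tissue also came from animals with a stressed eye. The protocol text common to all samples also describes injections of dasatinib or vehicle, and no sample label names either.

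Bipolar cells are the interneurons that carry signals from photoreceptors to amacrine and ganglion cells. ON bipolar cells sense glutamate through the receptor mGluR6, encoded by Grm6, which closes the cation channel TRPM1 in the dark. Rod bipolar cells serve dim light and are recognised by protein kinase C alpha, the product of Prkca, whereas cone bipolar cells form many subtypes set by factors such as VSX1, ISL1 and LHX4. In whole retina, fewer bipolar cells and less acetylation per bipolar cell cannot be told apart.

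The names inside the deposited lists went against the labels in 4 of 6 samples. Replicates 1 and 2 of the controls carried a 4xIOP name and replicates 1 and 2 of 4xIOP a control name, while both lists of replicate 3 carried the name of their label. Groups were kept as labelled, and every direction holds for the labels. The totals of marked promoters, window peaks and covered length are also given for the 2 lists whose names match, while the comparisons of single regions and of promoter percentiles are given for the groups as labelled. Some values are also given under the names inside the lists. Control replicate 3 stood apart with 36509 peaks over 20.1 Mb, against 16195 to 21893 peaks over 6.66 to 10.8 Mb in the other 5 lists. The lists also differed in a fragment-length class that crossed the labels. The shortest peak was 220 to 232 bp in control replicate 1 and 4xIOP replicates 1 and 2. It was 187 to 195 bp in control replicates 2 and 3 and 4xIOP replicate 3. The lists state no read counts, but fold and p of a peak together give the fragments at its summit. The mean background was 2.01 to 3.38 fragments, and the weakest peak of a list had 9 to 12 fragments at its summit. Peaks were called against a local background, so that more fragments were needed where this was raised, and the level of a promoter without a peak is not known. The photoreceptor gene Crx, for example, had no promoter peak in 4xIOP replicate 1 but 42 to 116 summit fragments in the other lists. All 12 photoreceptor markers were marked in 5 of 6 lists and 11 of 12 in the other, while microglial and endothelial markers were marked in 0 lists. Between 1 and 4 of 8 Müller glial markers, 1 and 2 of 8 amacrine and horizontal markers, 0 and 1 of 7 ganglion cell markers and 0 and 2 of 6 pigment epithelial markers were marked per list. Of 6 marker genes of liver, muscle, pancreas and epidermis, 0 to 3 were marked per list, with 3 in control replicate 3.

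Of the 9 bipolar genes, only Prkca had a promoter peak in all 6 lists. Grm6 was marked in 2 control lists. Trpm1, Isl1 and Cabp5 were marked in control replicate 3 alone, and Vsx1, Pcp2, Bhlhe23 and Lhx4 were marked in 0 lists. Per list, 1 or 2 of the 9 promoters were marked, except for 5 in control replicate 3. Among all protein-coding genes, 39.5% were marked in all 6 lists, 42.4% in 0 lists and 5.23% in control replicate 3 alone. The corresponding shares of the 9 bipolar genes were 11.1%, 44.4% and 33.3%, each resting on 1 to 4 genes, so that the share in 0 lists was close to that of all genes. When control replicate 3 was left out, 7 of the 9 bipolar genes (77.8%) were unmarked, against 47.6% of all coding genes.

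**Figure D1:**
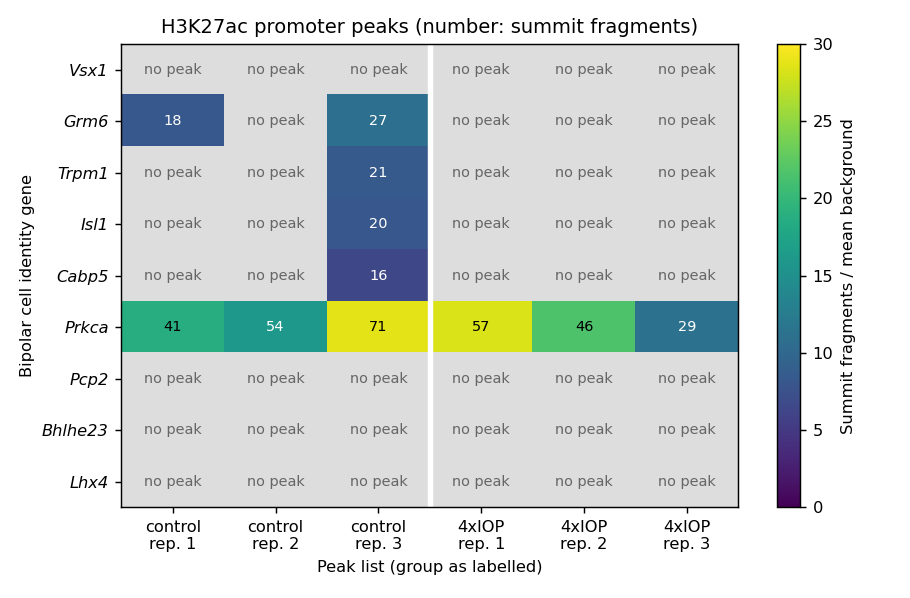
Promoter peaks of the 9 bipolar genes (rows) in the 6 lists (columns, 3 control on the left and 3 4xIOP on the right), with the summit fragments of the strongest promoter peak as a number, the same relative to the mean background of the list as colour, and grey where no peak was called. Prkca is coloured in all 6 lists, with 11.3 to 28.8 times the background, Grm6 in 2 control lists, Trpm1, Isl1 and Cabp5 in control replicate 3, and 4 genes are grey throughout.

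The sequences around the main start sites are shown for 6 genes, since base composition and homeodomain motifs are compared below. Each window was read from the GRCm38 genome on the strand of the gene, from 250 bases before to 50 after the start site given by GENCODE. In the first 3, CG dinucleotides are in capitals, and in the last 3 the capitals mark TAATCC, the letters bound by the homeodomain factors CRX and OTX2, or its reverse complement. The windows are Prkca at chr11:108343879-108344178 (minus strand), Bhlhe23 at chr2:180776851-180777150 (minus), Grm6 at chr11:50850435-50850734 (plus), Cabp5 at chr7:13397882-13398181 (plus), Trpm1 at chr7:64153585-64153884 (plus) and Isl1 at chr13:116309640-116309939 (minus).
Prkca promoter: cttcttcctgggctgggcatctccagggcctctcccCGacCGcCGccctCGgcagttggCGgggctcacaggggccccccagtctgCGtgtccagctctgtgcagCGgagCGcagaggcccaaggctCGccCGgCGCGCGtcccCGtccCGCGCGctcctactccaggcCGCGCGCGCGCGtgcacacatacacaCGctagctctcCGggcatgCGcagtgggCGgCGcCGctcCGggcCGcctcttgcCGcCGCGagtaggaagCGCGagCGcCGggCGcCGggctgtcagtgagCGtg
Bhlhe23 promoter: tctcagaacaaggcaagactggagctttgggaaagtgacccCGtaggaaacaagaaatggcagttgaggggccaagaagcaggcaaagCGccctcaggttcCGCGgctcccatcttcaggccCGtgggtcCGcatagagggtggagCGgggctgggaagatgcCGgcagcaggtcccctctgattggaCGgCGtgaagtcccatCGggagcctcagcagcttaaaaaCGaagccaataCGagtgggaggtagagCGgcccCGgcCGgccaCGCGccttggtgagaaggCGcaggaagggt
Grm6 promoter: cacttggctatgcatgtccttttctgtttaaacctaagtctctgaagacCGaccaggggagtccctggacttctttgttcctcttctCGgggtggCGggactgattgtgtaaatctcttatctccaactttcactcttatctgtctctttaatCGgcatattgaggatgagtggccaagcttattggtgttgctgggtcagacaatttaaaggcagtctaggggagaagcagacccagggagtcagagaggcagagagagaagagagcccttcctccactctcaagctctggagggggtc
Cabp5 promoter: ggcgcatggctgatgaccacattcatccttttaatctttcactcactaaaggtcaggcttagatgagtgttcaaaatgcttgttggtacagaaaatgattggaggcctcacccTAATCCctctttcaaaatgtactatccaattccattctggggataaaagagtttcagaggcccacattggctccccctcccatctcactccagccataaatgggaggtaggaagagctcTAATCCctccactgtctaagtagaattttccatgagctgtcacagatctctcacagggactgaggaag
Trpm1 promoter: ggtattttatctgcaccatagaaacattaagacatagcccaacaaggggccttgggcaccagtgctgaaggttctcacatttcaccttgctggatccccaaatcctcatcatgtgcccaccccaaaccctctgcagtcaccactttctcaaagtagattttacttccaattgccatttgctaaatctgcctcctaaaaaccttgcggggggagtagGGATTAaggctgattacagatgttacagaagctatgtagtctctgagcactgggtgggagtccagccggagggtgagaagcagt
Isl1 promoter: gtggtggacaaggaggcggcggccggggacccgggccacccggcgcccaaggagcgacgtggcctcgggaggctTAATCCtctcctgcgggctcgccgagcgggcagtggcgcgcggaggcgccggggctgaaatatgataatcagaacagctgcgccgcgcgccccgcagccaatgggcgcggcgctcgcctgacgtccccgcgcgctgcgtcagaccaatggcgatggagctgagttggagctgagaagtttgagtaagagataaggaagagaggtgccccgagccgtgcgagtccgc

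Prkca (ENSMUSG00000050965.14, chr11:107933387-108343928, minus strand) had the most promoter summit fragments of the bipolar genes. Its promoter region at chr11:108342653-108343874 lay just inside the gene, downstream of the main start site, with summits 0.194 to 0.855 kb into the gene. In the order of replicates 1 to 3, which is kept throughout, the summits held 41, 54 and 71 fragments in control and 57, 46 and 29 in 4xIOP. Relative to the mean background of each list this was 18.7, 16.0 and 28.8 in control and 28.3, 21.7 and 11.3 in 4xIOP. The groups as labelled overlapped, with the highest value in control replicate 3 and the lowest in 4xIOP replicate 3. Under the names inside the lists the multiples would be 28.3, 21.7 and 28.8 in control and 18.7, 16.0 and 11.3 in 4xIOP, which do not overlap. How many coding genes would not overlap under these names was not counted. Within each list, 52.3% to 92.8% of the marked coding promoters had fewer fragments than Prkca. Photoreceptor promoters nevertheless had more summit fragments, with list medians of 33.3, 23.5 and 52.2 times the background in control and 33.8, 42.6 and 16.8 in 4xIOP, above Prkca in each of the 6 lists.

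The fold enrichment of a peak is taken against a local background that includes the flanks of the peak. At the Prkca promoter this local background was 5.45, 3.63 and 8.33 times the list mean in control and 6.59, 5.94 and 3.45 times in 4xIOP. The fold of the Prkca region ranked at percentiles 23.1, 58.0 and 30.3 of the control lists and 48.7, 31.6 and 10.7 of the 4xIOP lists, 0 being the lowest fold of a list. The percentiles overlapped between the groups, and the other 8 bipolar genes gave no such comparison because they were not marked in all lists. Among the coding genes marked in all 6 lists, percentiles did not overlap in 11.8% and multiples of the mean background did not overlap in 1.04%. Near the second Prkca start site, 363 kb into the gene, control replicate 3 alone had a peak, with 16 fragments. The same list alone had a further peak at -0.291 kb, upstream of the main start site, with 66 fragments.

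Grm6 (ENSMUSG00000000617.14, chr11:50850685-50866208, plus strand), which encodes the glutamate receptor of ON bipolar cells, was marked in control replicates 1 and 3. The peaks held 18 fragments, 8.21 times the background, in replicate 1 and 27 fragments, 10.9 times, in replicate 3. Their summits lay 0.838 and 0.651 kb downstream of the start site, where the peaks were also within reach of the start site of Gm12660. Both were weak for their list, as the median marked coding promoter reached 14.6 and 24.3 times the background.

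Trpm1 (ENSMUSG00000030523.18, chr7:64153835-64269775, plus strand), the channel that mGluR6 controls, had 1 promoter peak, in control replicate 3. It held 21 fragments, 8.51 times the background, 0.280 kb downstream of the first of 7 start sites. Isl1 (ENSMUSG00000042258.13, chr13:116298281-116309689, minus strand), a LIM-homeodomain factor of ON bipolar cells that ganglion, amacrine and horizontal cells also use, had 20 fragments, 8.10 times the background, at -0.332 kb, upstream of its start site. Cabp5 (ENSMUSG00000005649.17, chr7:13398132-13408887, plus strand), a calcium-binding protein of rod bipolar and some cone bipolar cells, had 16 fragments, 6.48 times the background, 0.370 kb downstream. These single peaks all lay below the median promoter of the same list. The local background of the Cabp5 peak was at the lowest level of the list, which is taken as its mean (1.00), and its fold was at percentile 67.2, against 16.2 for Trpm1 and 22.2 for Isl1.

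The 4 genes without a promoter peak were Vsx1 (ENSMUSG00000033080.9, chr2:150680702-150689360, minus strand), a homeodomain factor of cone bipolar subtypes, and Pcp2 (ENSMUSG00000004630.18, chr8:3623371-3625545, minus strand), a modulator of G protein signalling found in rod bipolar and ON cone bipolar cells. The others were Bhlhe23 (ENSMUSG00000045493.4, chr2:180774381-180776900, minus strand), a basic helix-loop-helix factor needed by rod bipolar cells, and Lhx4 (ENSMUSG00000026468.14, chr1:155698031-155751684, minus strand), a LIM-homeodomain factor of cone bipolar cells. All 4 stayed unmarked in each of the 6 lists.

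The number of bipolar genes with a marked promoter was 2, 1 and 5 in the control lists and 1, 1 and 1 in the 4xIOP lists. The means were 2.67 ± 2.08 and 1 ± 0 genes (SD, n = 3), a difference of -1.67 that was within the spread of the controls. Without control replicate 3 the difference was -0.5 genes. When each list was cut to its 16195 peaks of smallest p, the length of the shortest list, 1 bipolar gene was marked in each of the 6 lists and the difference was 0. Between the 2 lists named as labelled it was -4, from 5 genes in control replicate 3 to 1 in 4xIOP replicate 3.

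To see whether the pattern extended beyond the 9 genes, 33 further genes of bipolar cells were counted, as transcription factors, members of the mGluR6 cascade and synaptic or subtype genes. Of these 33 genes 9 were marked in all 6 lists, 7 in 0 lists and 13 in control replicate 3 alone. The number marked per list was 10, 12 and 24 in control and 10, 11 and 10 in 4xIOP, so that 5 lists were alike and control replicate 3 held more. In percent, control replicate 3 marked 72.7% of these bipolar genes and the other lists 30.3% to 36.4%, beside 56.9% and 44.6% to 48.6% of all coding genes. At equal list length the counts were 10, 11 and 8 in control and 9, 7 and 10 in 4xIOP, so that control replicate 3 was no longer the highest. Over all coding genes at equal length it remained so, with 44.3%, 43.3% and 47.6% in control and 44.4%, 42.2% and 44.6% in 4xIOP.

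**Figure D2:**
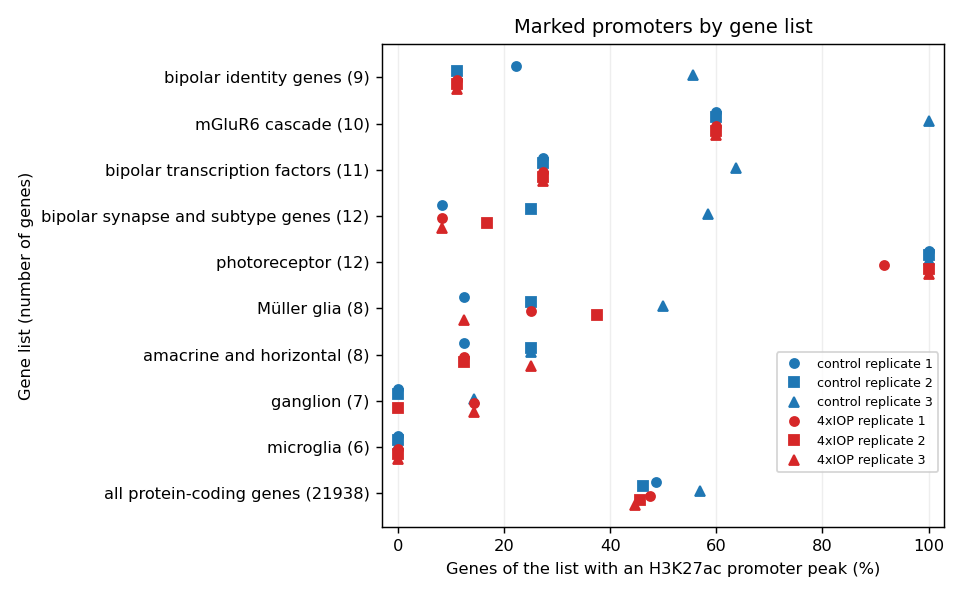
Percent of the genes of each list with a marked promoter, with 1 symbol per peak list (blue, control; red, 4xIOP; circle, square and triangle for replicates 1 to 3) and the number of genes in parentheses. Control replicate 3 (blue triangle) is the highest of the 6 for each group of bipolar genes, at 55.6% of the 9 identity genes against 11.1% to 22.2% in the other lists. It is also the highest for Müller glial markers, at 50%, and for all protein-coding genes, at 56.9%, whereas photoreceptor markers are at or close to 100% throughout.

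The mGluR6 cascade was the best marked of the 3 groups. Of its 10 genes beside Grm6 and Trpm1, 6 were marked in all 6 lists and the other 4 (Nyx, Gpr179, Gng13 and Rgs11) in control replicate 3 alone. Of all coding genes, 39.5% were marked in all 6 lists and 5.23% in control replicate 3 alone. The lists are from whole retina, and which cells carried these peaks was not tested. Rgs7, a regulator of G protein signalling in ON bipolar dendrites, had 17, 21 and 33 summit fragments in control and 15, 11 and 19 in 4xIOP. Lrit3, a synaptic protein that photoreceptors express and that places TRPM1 on the bipolar side, had 68, 63 and 117 in control and 58, 61 and 34 in 4xIOP. These are counts in lists of unequal background, and the within-list fold percentiles of both genes overlapped between the groups as labelled. Of the 9 further bipolar genes marked in all lists, 1 (Gnb5) had percentiles that did not overlap, against 11.8% of all such genes. Under the names inside the lists its percentiles would be 2.01, 0.930 and 5.98 in control and 2.19, 3.35 and 1.75 in 4xIOP, which overlap. Those of Lrit3, Gnb3, Otx2, Prdm8 and Kcng4 would not overlap under these names. For Lrit3 they would be 73.6, 76.9 and 80.3 in control and 62.5, 70.2 and 27.7 in 4xIOP. The share of all coding genes under these names was not counted. Lrit3 and Rgs7 are also among the 3 genes with the highest mean fold percentile, together with Slitrk5, a synaptic adhesion protein marked in control replicate 3 only.

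Among 11 bipolar transcription factors, 2 were marked in all 6 lists (Otx2 and Prdm8), 3 in 0 lists and 4 in control replicate 3 alone, among them Neurod4, Bhlhe22 and Ebf1. The unmarked ones were Irx5, Irx6 and Sebox. Otx2, which acts in photoreceptors and bipolar cells, had 76, 83 and 120 fragments in control and 58, 84 and 56 in 4xIOP, which overlapped. Genes of these lists other than the unmarked ones and Rgs7, Lrit3 and Slitrk5 are named here after their values were seen. Of the 12 synaptic and subtype genes, 1 was marked in all lists (Kcng4) and 4 in 0 lists, namely Cabp2, Tacr3, Gabrr2 and Erbb4. Not 1 of the 33 genes was marked in all lists of one group and in at most 1 list of the other.

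The windows of the 9 genes held 25, 20 and 54 peaks in control and 18, 18 and 15 in 4xIOP, so that the groups as labelled did not overlap. Under the names inside the lists they would overlap, as the control counts would be 18, 18 and 54 and the 4xIOP counts 25, 20 and 15. Single windows of all coding genes leaned the same way, with counts lower in all 4xIOP lists in 4.82% and higher in 0.0547%. The whole lists overlapped, with 21893, 19913 and 36509 peaks in control and 20338, 20804 and 16195 in 4xIOP. The means were 33 ± 18.4 and 17 ± 1.73 peaks (SD, n = 3), a difference of -16 peaks that was smaller than the SD of the controls and was -7.15 when counts were scaled to the list length. The covered length was 10.6, 6.64 and 25.6 kb in control and 9.003, 9.26 and 5.48 kb in 4xIOP, or 14.3 ± 9.99 and 7.92 ± 2.11 kb (SD, n = 3), a difference of -6.34 kb. Control replicate 3 carried most of it: without this list the differences were -5.5 peaks and -0.680 kb, and at equal list length -1 peak and -0.87 kb. Between the 2 lists named as labelled they were -39 peaks and -20.1 kb. The median number of peaks per 100 kb of window was 0.926, 0.926 and 1.85 in control and 0.463, 0.926 and 0.463 in 4xIOP for the bipolar genes, against 1.70, 1.53 and 2.67 and 1.60, 1.62 and 1.19 for all coding genes. The bipolar windows were thus sparser than the median window in each of the 6 lists.

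By position, 46.7% of the 150 peaks in these windows lay at promoters of other genes, 32.7% in the bodies of the bipolar genes, 11.3% in their flanks and 9.33% at their own promoters. Peaks at other promoters numbered 13, 13 and 16 in control and 8, 10 and 10 in 4xIOP. Peaks in the gene bodies were 7, 4 and 24 in control and 8, 4 and 2 in 4xIOP, and 48 of these 49 peaks were in Prkca, the longest of the 9 genes, with the other in Trpm1. After peaks at other genes' promoters were removed the difference was -11.3 peaks.

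**Figure D3:**
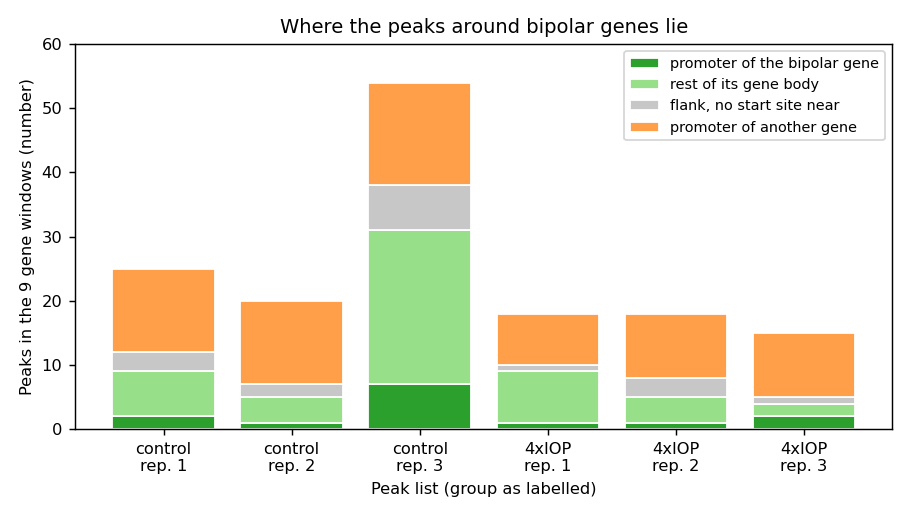
Peaks in the windows of the 9 bipolar genes for each of the 6 lists, stacked by whether they lay at the gene's own promoter, in its body, in its flank or at another gene's promoter. Control replicate 3 reaches 54 peaks, with 24 in gene bodies, and the other lists reach 15 to 25.

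Prkca supplied 60 of the 150 peaks, as 9, 5 and 27 in control and 9, 5 and 5 in 4xIOP. Of these 48 lay inside its body of 410.5 kb, 9 at its promoters and 3 in its flanks. Per 100 kb, the covered length was 0.639, 0.277 and 2.10 kb in control and 0.762, 0.471 and 0.312 kb in 4xIOP. Control replicate 3 again stood alone, and the other lists overlapped.

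One intronic region of Prkca, at chr11:108297337-108298008, was the only region of these windows away from any promoter that was called in all 6 lists. It lies 46.2 kb into the gene, and its summits held 44, 54 and 75 fragments in control and 52, 47 and 33 in 4xIOP. These counts are close to those at the Prkca promoter and overlapped between the groups as labelled. The fold percentiles were 8.27, 26.8 and 20.5 in control and 21.3, 8.86 and 4.85 in 4xIOP, below the promoter in each list. Over the mean background, the counts under the names inside the lists would be 25.9, 22.1 and 30.4 in control. In 4xIOP they would be 20.1, 16.0 and 12.9, which does not overlap control. The share of all regions that would not overlap under these names was not counted. The local background was 7.23, 4.80 and 9.79 times the list mean in control and 7.76, 7.90 and 4.44 times in 4xIOP, so that the peak sat within a stretch of raised background, as at the promoter. The 300 bases around the summit in the union of the lists, chr11:108297610-108297909 on the plus strand, are shown with the 11 bases at the summit in capitals, and held 0 matches to the 3 motifs searched for further on.
Prkca intronic region: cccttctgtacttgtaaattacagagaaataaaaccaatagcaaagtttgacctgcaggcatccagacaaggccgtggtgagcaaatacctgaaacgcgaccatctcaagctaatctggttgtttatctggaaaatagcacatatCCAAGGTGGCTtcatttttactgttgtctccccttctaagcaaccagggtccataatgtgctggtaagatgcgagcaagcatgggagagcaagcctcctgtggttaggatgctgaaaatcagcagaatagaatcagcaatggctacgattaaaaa

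**Figure D4:**
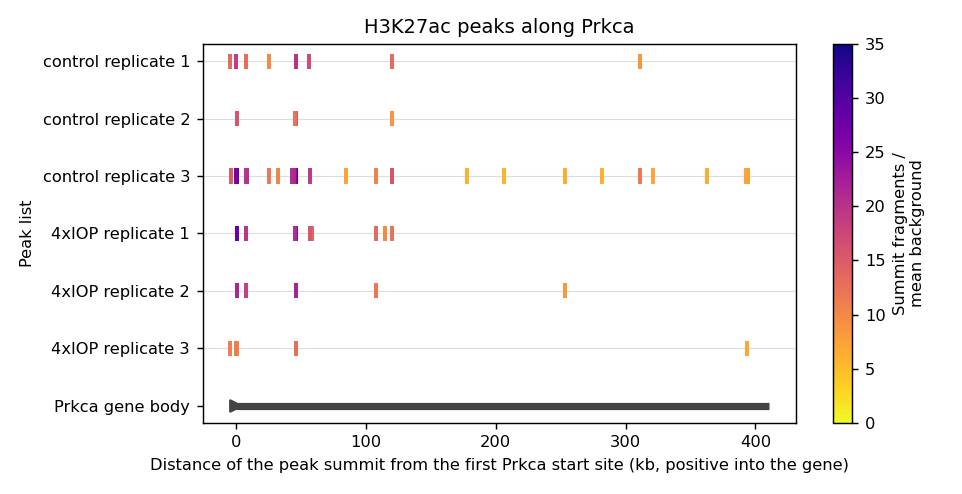
Peaks of each list along Prkca as ticks at the distance of the summit from the first start site (kb, positive into the gene), coloured by summit fragments over the mean background of the list, with the gene body as a bar in the lowest row. Ticks at the promoter and 46.2 kb into the gene recur in all 6 lists, and control replicate 3 has further, weaker ticks along the gene body.

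Pcp2 was the only bipolar gene whose window counts did not overlap between the groups as labelled, with 6, 6 and 9 peaks in control and 3, 5 and 2 in 4xIOP. Under the names inside the lists the counts would be 3, 5 and 9 and 6, 6 and 2, which overlap. Of the 31 peaks 21 lay at promoters of neighbouring genes and 10 in the flanks, and 0 at the Pcp2 promoter. Counts that were lower in all 4xIOP lists were found in 4.82% of the windows of all coding genes and counts that were higher in 0.0547%, beside 1 and 0 of the 9 bipolar genes. The covered length per 100 kb was 2.49, 2.25 and 5.07 kb in control and 1.305, 2.62 and 0.862 kb in 4xIOP, which overlapped. The most recurrent flanking region, at chr8:3609720-3610500, lay 15.7 kb downstream of the Pcp2 start site and overlapped an exon and an intron of Xab2, a DNA repair and splicing factor. It had 23, 22 and 49 fragments in control and 26 and 27 in 4xIOP replicates 1 and 2, and no peak in 4xIOP replicate 3.

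Around the other genes, peaks were mostly those of neighbours. The Grm6 window had 5, 4 and 6 peaks in control and 4, 4 and 5 in 4xIOP, of which 26 of 28 lay at the promoters of zinc-finger genes (Zfp354c, Zfp879, Zfp454 and Zfp2). The Bhlhe23 window had 2, 3 and 3 and 1, 2 and 2 peaks, 12 of 13 at the non-coding RNA gene Gm14340. The Trpm1 window had 2, 2 and 4 and 1, 2 and 1 peaks, 10 of 12 at Mtmr10 or Gm45212. Lhx4 had 1, 0 and 2 peaks in control, all in the flanks, and 0 in each 4xIOP list. Isl1, Cabp5 and Vsx1 had 1 peak each, in control replicate 3.

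Peaks of the 6 lists merged into 56 regions in these windows, among 39942 in the genome. Of the 56 regions 16.1% were called in all 6 lists and 46.4% in control replicate 3 only, against 26.4% and 28.6% of all regions. The 9 regions called in all lists comprised 7 promoters of neighbouring genes, the Prkca promoter and the Prkca intronic region. In each list, folds were ranked only among the 10529 regions called in all 6 lists, not among all peaks of the list. Each rank was expressed as a normal score, and limma compared the groups over all 10529 regions. After Benjamini-Hochberg adjustment 0 regions passed (0% called, smallest adjusted p = 0.9999), and 334 had an unadjusted p under 0.05, of which 0 were near a bipolar gene. The median difference, 4xIOP minus control, was -0.05 at the 9 regions and 0.01 over all regions on the scale of normal scores.

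The Prkca promoter differed by 0.02 ± 0.36 (SE) and the intronic region by -0.05 ± 0.33. With the groups as labelled, the smallest p among the regions lower in 4xIOP belonged to the Mtmr10 promoter in the Trpm1 window (chr7:64287630-64288332), at -0.37 ± 0.32 (SE), with 39, 34 and 77 fragments in control and 31, 35 and 29 in 4xIOP. It was followed by the Zfp454 promoter in the Grm6 window at -0.31 ± 0.36. Among the regions higher in 4xIOP as labelled the Gm14340 promoter in the Bhlhe23 window (chr2:180824768-180826763) came first at 0.17 ± 0.31, with 56, 49 and 100 fragments in control and 61, 64 and 31 in 4xIOP, and the Zfp354c promoter second at 0.13 ± 0.33. With the groups as labelled, mean percentiles over whole lists were instead lower in 4xIOP at Gm14340, Zfp354c and the Prkca promoter. The sign thus depended on which peaks were ranked. Under the names inside the lists the percentiles at Gm14340 would be 43.3, 36.0 and 54.6 in control and 27.2, 21.4 and 13.0 in 4xIOP, which do not overlap. Those at Mtmr10, Zfp454 and Zfp354c would overlap. The adjusted limma p was 0.9999 for each of the 9 regions, and all differences except that at Mtmr10 were below their standard error.

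Finally, marking was compared with base composition. The CpG ratio, the observed over expected number of CG in the 300 bases around a start site, is high in CpG islands, which most broadly expressed genes have. It was taken as the highest over the start sites of a gene. Of the coding genes with a ratio of at least 0.6, 65.4% were marked in all 6 lists and 11.9% in 0 lists, and of those under 0.35 only 4.46% were marked in all lists and 88.5% in none. Prkca was in the high class, with 1.04 at its second start site and 0.976 in the printed window of the main one, which has 41 CG. Vsx1 (0.705), Bhlhe23 (0.685, with 19 CG) and Lhx4 (0.613) were unmarked in spite of a high ratio, and Isl1 (1.06) was marked once.

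The other 4 bipolar genes were CpG-poor. Grm6 had a highest ratio of 0.278 and 0.218 in the printed window with 4 CG. Trpm1 had a highest ratio of 0.248 and 0.114 in the printed window. The ratio was 0.119 for Pcp2 and 0.0647 for Cabp5. In this order they were marked in 2, 1, 0 and 1 lists. Photoreceptor markers were CpG-poor as well, 9 of 12 being under 0.35, yet 8 of these 9 were marked in all 6 lists. Of the 33 further bipolar genes 9 were under 0.35, of which 2 were marked in all lists, and 13 were at or above 0.6, of which 4 were.

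**Figure D5:**
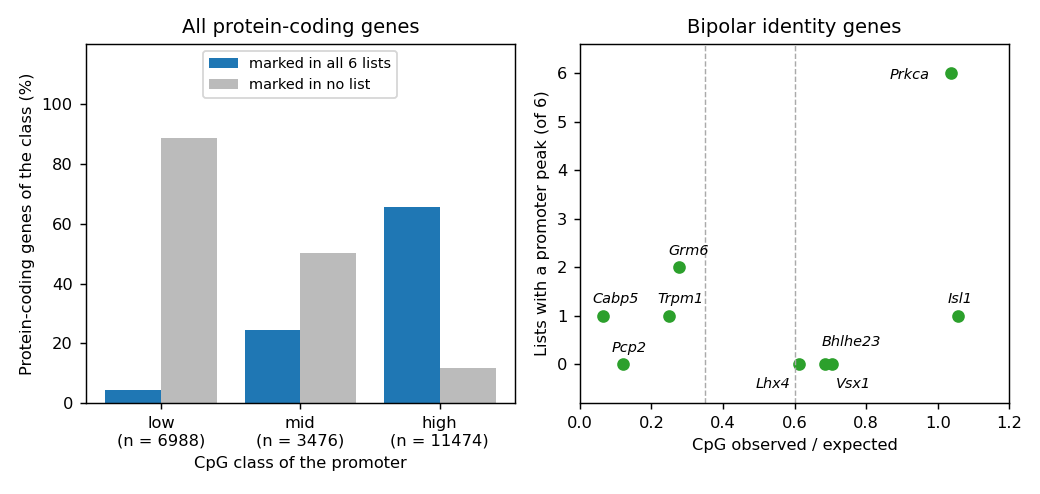
Left, percent of protein-coding genes marked in all 6 lists or in 0 lists for 3 classes of CpG ratio (under 0.35, between, and at least 0.6). Right, the CpG ratio of each bipolar gene against the number of lists in which its promoter was marked, where Prkca sits at 1.04 and 6 lists and 3 genes of the high class sit at 0 lists.

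In the 300-base windows, TAATCC occurred on either strand in 4 of 9 bipolar genes and in 10.2% of coding genes, each taken over all start sites. Cabp5 had it at -137 and -18 bases from the start site, Trpm1 at -34 on the reverse strand and Isl1 at -176, and Prkca had it only at its second start site. These 4 genes had 7 of 23 windows with a match, which overlap where start sites lie close together. TAATTA, a core of many homeodomain sites, occurred in Pcp2 alone and in 7.43% of coding genes, and CATATG, an E-box, in 0 bipolar genes and in 4.90%. No bipolar gene window held more than 1 of these motifs, so that no matches of different motifs overlapped. A match describes letters in the window and not a bound site, and it was noticed after the values were seen that 3 of the 4 genes with TAATCC were those marked in control replicate 3 alone.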

How the data were processed

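H3K27ac ChIP-seq was measured with 1 deposited peak list per retina, called by the authors for each sample alone. The deposited fold enrichment of a peak is the ratio of the fragment pile-up at its summit to a local background. Significance was deposited by the authors as a −log10 p-value and a −log10 q-value per peak, and the deposited integer score was not used here. The submitters' processing notes name STAR 2.7.8a, MACS2, HOMER, edgeR, bedtools 2.29.2 and mm10 without a role, and the thresholds used are not given in the sources used here. The least −log10 q of a list was 1.31 to 1.40, and 0 peaks ended past a chromosome of GRCm38.

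Lists were read with Python 3.11.15, pandas 2.3.3, numpy 2.4.6 and scipy 1.17.1. Fragments and local background were recovered from fold and p, assuming a Poisson p and a fold of (fragments + 1) / (background + 1), with a tolerance of 0.001 in −log10 p for a whole number of fragments. Each list's lowest background served as its mean and equals 87.4 to 173 fragments per 10000 bp, which stands in for depth. Peaks on unplaced contigs were left out, and overlaps needed 1 bp. CpG ratios and motifs were taken from the GRCm38 sequence at GENCODE start sites. Regions called in all 6 lists were compared with limma 3.58.1 (R 4.3.3) on normal scores of fold ranks, taken within each list among these regions, adjusted at 0.05. Both this fit and the recovery of fragments were tested on simulated data. Counts over the bipolar genes were given without a test.

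The labels gave the groups and the replicate numbers. They do not state which retinas came from the same animal, and the numbers were not treated as pairs in the main comparison. The correlations of deviations between same-numbered samples were -0.02, -0.06 and -0.15, which cannot settle the pairing. The members and gene lists were chosen with earlier results of these data known. The text names all 9 genes, the recurrent distal regions (called in at least 5 lists), the member regions of smallest limma p (2 per direction), further bipolar genes that were marked in 0 lists or differed by group, and the 3 with the highest mean percentile. Alternatives were other ranks, a −log10 q of at least 5, lists of equal length, other window sizes, a fragment-length class, a replicate block, the lists named as labelled and leaving out each replicate. Shares per list at equal length for the further bipolar genes were added after the data were seen. The values of 1 further bipolar gene are not reported here.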

Additional observations from a re-analysis of the deposited data

How the results depend on the processing

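The limma comparison called 0 of 10529 regions and 0 under each of 13 alternatives, with 128 to 701 regions at an unadjusted p under 0.05. The fit with the replicate block also called 0, with 289 such regions. Same-numbered samples deviated with correlations of -0.02, -0.06 and -0.15, which cannot show whether they came from the same animal. In lists of equal length the difference in marked bipolar genes was 0 and that in window peaks -1. Between the 2 lists named as labelled the differences were -4 genes, -39 peaks and -20.1 kb. With 1 replicate left out they ranged from -2.5 to -0.5 genes, -22.5 to -5.5 peaks and -10.1 to -0.680 kb, the smallest always without control replicate 3. With a −log10 q of at least 5 they were -1 gene, -9 peaks and -4.01 kb. The cause was not tested.

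Of 106 values of single regions under alternatives, 19 changed sign, with 0.8784 as the smallest adjusted limma p. Ranked by −log10 p and by summit fragments, the Zfp2 promoter near Grm6 gave 0.0249 and 0.0547 and the Prkca intronic region 0.145 and 0.243. With the fragment-length class as a term the Prkca promoter gave -0.0514. Leaving out 1 replicate gave -0.22 to 0.35 at the Prkca promoter, -0.26 to 0.16 at the intronic region, -0.52 to 0.18 at Zfp2, -0.23 to 0.29 at the Camsap3 promoter near Pcp2, -0.0555 to 0.40 at Zfp354c and -0.39 to 0.0371 at Zfp879. The direction of these regions was therefore not resolved. With 1 replicate left out the sign held but the size varied at Gm14340 (0.0131 to 0.354), Mtmr10 (-0.550 to -0.185) and Zfp454 (-0.675 to -0.0241), with the groups as labelled. The lists hold called peaks only, and the fragments needed for a call rose with the local background, so that an uncalled promoter has no value here.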
